A study of Arabidopsis thaliana with 8 samples.

Results

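Seedlings of L20, an Arabidopsis line that overexpresses the wheat transcription factor gene TabZIP6, differed from wild type before any cold in 103 probe sets. In these the mean cold change of wild type itself was under 2-fold. These were chosen by their measured values among 22746 probe sets. L20 minus wild type before cold, paired by replicate number, had to be at least 1 on the log2 scale in both replicates or at most -1 in both, and the mean cold change of wild type had to lie between -1 and 1. IAA29, GH3.3, GH3.5, EXPA8, EXPA16, EXO, ARL, LEA4-5 and ZAT10 were left out by name, of which 5 met the rule (IAA29, GH3.3, GH3.5, EXPA16 and ZAT10). Of the 103, 68 were higher and 35 were lower in unchilled L20. A log2 difference of 1 is a 2-fold difference, and "no cold response" means here only a mean change under 2-fold: 33 of the 68 and 16 of the 35 lay within 0.5 in wild type. Single replicates of wild type could move further, also in opposite directions. Its changes were 0.516 and -1.525 for AT2G47440, and 1.611 and 0.173 for AT1G29670.

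Affymetrix arrays, whose probe sets each combine several short probes for a transcript, measured total RNA of whole seedlings aged 10 days. There were 4 groups with 2 biological replicates each: L20 before cold, wild type (ecotype Col-1) before cold, L20 after 6 h at 4 °C and Col-1 after 6 h at 4 °C. All had grown at 22 °C. L20 is 1 line, the promoter of its transgene is not given in the labels, and the level of TabZIP6 itself was not analysed here. Whether the biological replicates were separate cultures is not stated in the labels, so a p-value reflects only how far these arrays spread. The deposited values of replicate 1 of Col-1 before cold stood apart, with an upper quartile of 6.28, against 6.46 to 6.64 on the other 7 arrays. In RNA of whole seedlings, fewer cells of a type and less RNA per cell cannot be told apart.

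Transcription factors of the basic leucine zipper (bZIP) family bind DNA as dimers, mostly at sites around an ACGT core, and many of them act in abscisic acid, light and stress responses. In the cold, Arabidopsis switches on CBF transcription factors, whose targets include the cold-regulated (COR) genes. The members described here were chosen for a mean cold change under 2-fold in wild type. In 46 of the 68 higher and 21 of the 35 lower members that smaller change still ran in the direction of the L20 difference. Both values use the same unchilled Col-1 arrays, which favours a shared direction, and the share over all probe sets was not counted. Nothing is read from these counts, and the relation of the members to the CBF programme was not tested. Of the 103, 39 carried 1 gene, 21 higher and 18 lower, with 39 distinct loci among them. A further 1 probe set carried several genes, and 63 had no gene name here. All 39 are given below, grouped by known role after their values had been seen.

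The values that chose the members are a description and support no test. Before cold, 117 of all probe sets (0.514%) were at least 1 higher in L20 in both replicates, and 97 (0.426%) at least 1 lower. The 68 higher members had a median difference of 1.68, from 1.02 to 4.12 (log2), and the 35 lower members a median of -1.39, from -2.45 to -1.05. After cold the differences were mostly gone: the medians were 0.07 and -0.07, against 0.00 over all probe sets. Of the 68 and the 35 members, 0 and 0 kept a difference of at least 1 in both replicates. Over all probe sets 1 (0.0044%) was that much higher in L20 and 0 (0%) that much lower.

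**Figure D1:**
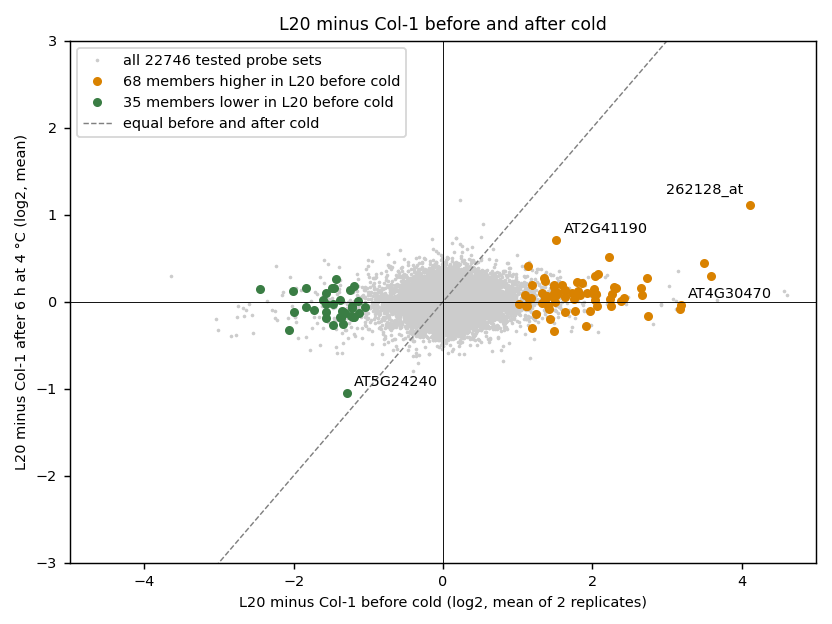
L20 minus Col-1 before cold (x axis) against L20 minus Col-1 after 6 h at 4 °C (y axis), both as the log2 mean of 2 replicates. Grey points are all 22746 tested probe sets, coloured points the 68 higher and 35 lower members, and the dashed line marks equal differences. Most members lie near 0 on the y axis; the lower member AT5G24240 at -1.06 and the higher member 262128_at at 1.11 lie farthest from it.

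A smaller remainder was left in 3 members. At least 0.5 in both replicates was kept by 2 of the 68 higher members, AT2G41190 and the unnamed probe set 262128_at, and by 1 of the 35 lower members, AT5G24240. Over all probe sets 5 (0.022%) were that much higher and 9 (0.0396%) that much lower in L20 after cold. The same sign in both replicates was kept by 24 of 68 and 17 of 35 members, where 25.7% of all probe sets were higher and 23.7% lower in both replicates. Both replicates had the opposite sign in 12 of 68 and 8 of 35 members, and the rest differed in sign between replicates.

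AT5G24240, a gene of the phosphatidylinositol kinase family, kept most of its difference. Before cold it stood at 6.04 and 5.28 in L20, against 7.36 and 6.54 in Col-1 (log2 signal, replicate 1 and 2). After cold it stood at 5.95 and 5.87 in L20, against 7.26 and 6.67 in Col-1. Both L20 arrays were below both Col-1 arrays at either time, and the cold moved neither line by more than 0.25 on average. The difference after cold was -1.06 ± 0.37 (SE), or 2.08-fold lower in L20, which is 81.9% of the difference before cold.

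AT2G41190, which encodes a protein of the amino acid transporter family, kept 46.9% of its difference. Its signal was 5.95 and 6.12 in L20, against 4.55 and 4.48 in Col-1, before cold. After cold it was 5.67 and 5.94 in L20, against 4.97 and 5.21 in Col-1. Here too the groups did not overlap at either time. Before cold that held in 68 of 68 higher and 35 of 35 lower members, which the rule largely fixes. After cold it held, in the direction before cold, in 6 of 68 and 2 of 35 members. The share over all probe sets was not counted, and nothing is read from these counts. For AT2G41190, L20 stayed within 0.23 of its level before cold on average, and Col-1 was higher after cold in both replicates, by 0.58 on average. The difference after cold was 0.71 ± 0.19 (SE), a 1.64-fold higher signal in L20.

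The probe set 262128_at had the largest difference before cold among the members, 17.3-fold. It read 9.96 and 8.98 in L20, against 5.27 and 5.44 in Col-1, before cold, and 6.50 and 7.44 in L20, against 5.55 and 6.16 in Col-1, after cold. Both L20 arrays stayed above both Col-1 arrays, and 27.1% of the log2 difference was left after cold (1.11 ± 0.43, SE). Its gene is not named here.

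The test of L20 against Col-1 after cold set arrays of L20 that had no part in choosing the members against Col-1 arrays that entered the choice through their mean. The unchilled arrays that chose the members enter this fit through its estimate of the spread. With limma and Benjamini-Hochberg adjustment over all probe sets, 0 of 103 members passed, and 0 of 22746 probe sets (0%). At an unadjusted p under 0.05 limma had 2 of 68 higher and 1 of 35 lower members, which were 262128_at, AT2G41190 and AT5G24240, and 19 of all probe sets (0.0835%). In the fit that blocked on replicate number, 0 members passed limma's adjusted test, and 129 of all probe sets (0.567%) had an unadjusted p under 0.05. Among these were 2 of 68 higher and 1 of 35 lower members, again 262128_at, AT2G41190 and AT5G24240. Their SEs in the blocked fit were 0.42, 0.15 and 0.20. A fit on the 4 arrays after cold alone, with the replicate block, was added after the data were seen: limma called 4 probe sets (0.0176%), among them the members 262128_at (adjusted p = 0.000534) and AT5G24240 (adjusted p = 0.00173), but not AT2G41190 (adjusted p = 0.105). That fit has few arrays and leans on the spread borrowed from other probe sets. In it 1177 of 22746 probe sets had an unadjusted p under 0.05 in limma in either direction, among them 8 of 68 higher and 2 of 35 lower members. The 8 include AT2G47440 (-0.34 after cold) and 247439_at (-0.30 after cold), which ran against their direction before cold. The 8-array fit without the block counts the gap between replicates as spread. Its 19 probe sets are far below a share of 0.05, so its 0 calls do not show that the lines were alike after cold. The adjusted p of AT5G24240 and of 262128_at was above 0.05 in the other 14 alternatives, so neither counts as called.

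In 58 of 68 higher members both L20 arrays before cold lay above all other 6 arrays, and in 29 of 35 lower members both lay below them. Over all probe sets the shares were 7.33% and 3.82%, and the rule used 4 of these arrays one by one and 2 through their mean, so that it largely fixes the counts. With cold, L20 moved against the difference in both replicates in 62 of 68 and 31 of 35 members, where 32.2% of all probe sets went down and 31.2% up in both L20 replicates. L20 and Col-1 moved in opposite directions, L20 against the difference, in both replicates in 32 of 68 and 14 of 35 members, where 5.07% of all probe sets had L20 down and Col-1 up and 3.58% the reverse. The median cold change in L20 was -1.37 for the higher and 1.11 for the lower members, against 0.21 and -0.18 in Col-1 (log2). All these counts and changes use arrays that chose the members, so a shift back towards Col-1 is partly built into them, nothing is read from them, and they were not tested.

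**Figure D2:**
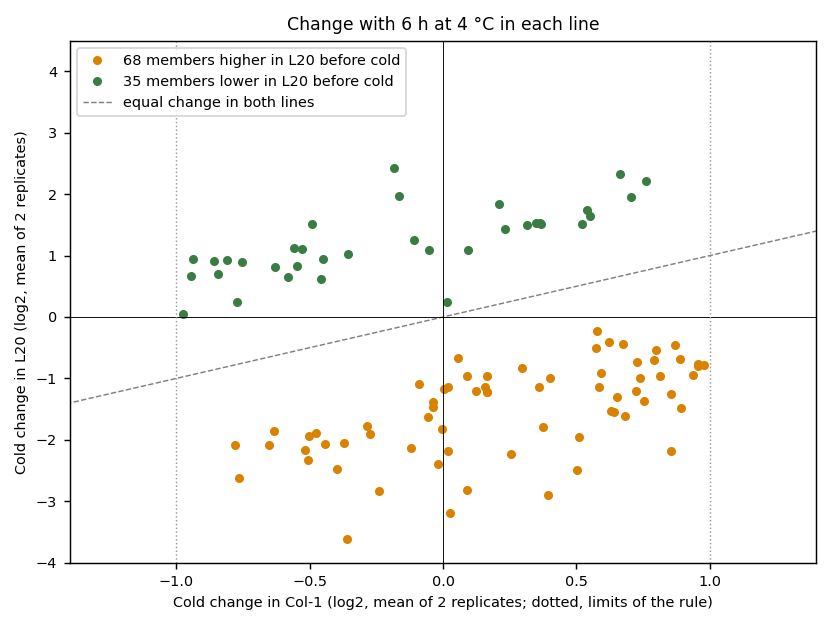
Mean cold change in Col-1 (x axis) against mean cold change in L20 (y axis), on the log2 scale over 2 replicates, for the 68 higher and 35 lower members. Dotted lines are the limits of the rule on Col-1 and the dashed line marks equal changes; all higher members lie below it and all lower members above it, as the choice of members largely fixes, with medians in L20 of -1.37 and 1.11.

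Regulators of transcription stood among the higher members. AT1G64380, an AP2/ERF transcription factor gene, had 7.31 and 5.92 in L20, against 3.6 and 4.14 in Col-1, before cold (log2 signal), a 6.69-fold difference. After cold it had 3.49 and 4.12 in L20, against 3.57 and 4.36 in Col-1. Only the 2 unchilled L20 arrays were high, and the groups overlapped after cold.

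HAT2, a homeodomain-leucine zipper gene that is induced by auxin, was at 9.64 and 9.32 in L20, against 7.45 and 7.94 in Col-1, before cold, a 3.46-fold difference. After cold it was at 7.52 and 8.21 in L20, against 7.23 and 8.04 in Col-1. The differences after cold were 0.29 and 0.16, with L20 higher in both pairs. The gap between the replicates was larger in either line. That gap is shared by replicate number and does not measure the spread of the paired differences. On the chilled arrays alone, with the replicate block, the difference of HAT2 was 0.23 ± 0.13 (SE), and limma did not call it. BIM1, a basic helix-loop-helix partner in brassinosteroid signalling, was 2.59-fold higher in L20 before cold and differed by 0.00 and 0.09 after cold. For BIM1 Col-1 met L20 partway, with a cold change of 0.87 in Col-1 and -0.46 in L20. Among the lower members, the C2H2 zinc-finger gene AT4G17810 differed by -1.03 and -1.22 before cold and by -0.15 and -0.11 after it.

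Several named members belong to enzyme families. AT4G30470, of the short-chain dehydrogenase-like family that includes cinnamoyl-CoA reductases, had the largest difference of any named member, 9.12-fold. It averaged 8.67 ± 0.20 in L20, against 5.48 ± 0.25 in Col-1, before cold (log2 signal, SD, n = 2), and 5.47 ± 0.44 in L20, against 5.51 ± 0.08 in Col-1, after cold. Its replicates after cold differed in sign, at -0.29 and 0.22, and the groups overlapped.

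The GDSL-type lipase gene AT1G29670 had 11.46 and 11.19 in L20, against 8.49 and 9.39 in Col-1, before cold, and 10.24 and 9.45 in L20, against 10.11 and 9.57 in Col-1, after cold. For this gene both lines met between their earlier levels, with a cold change of -1.48 in L20 and 0.89 in Col-1. The alpha/beta-hydrolase gene AT5G41900 had 9.63 and 7.85 in L20, against 6.27 and 5.87 in Col-1, before cold, and 6.04 and 5.77 in L20, against 6.20 and 5.46 in Col-1, after cold. The cold change was -2.83 in L20 and -0.24 in Col-1, and the arrays of the lines overlapped after it. The hydrolase gene AT1G32190 differed by 1.11 and 1.13 before cold and by -0.16 and 0.05 after it. MGL, the methionine gamma-lyase gene of methionine breakdown, was 2.2-fold higher before cold, and differed by 0.70 in replicate 1 but 0.12 in replicate 2 after cold.

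**Figure D3:**
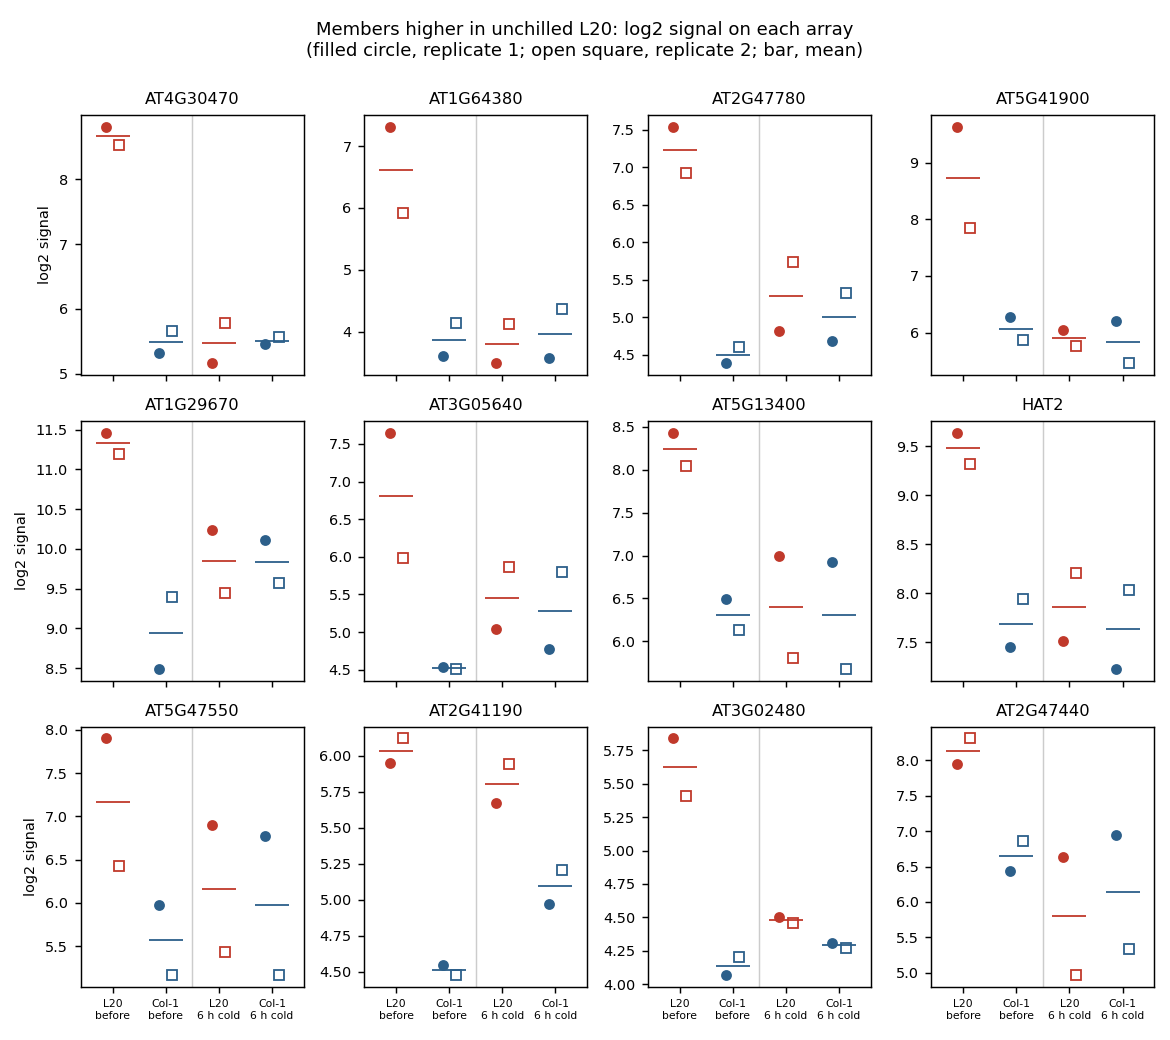
Log2 signal on each of the 8 arrays for the 12 higher members with 1 gene and the largest difference before cold; within each panel L20 stands left of Col-1, before cold and then after 6 h at 4 °C. Circles are replicate 1, squares replicate 2 and bars group means; axes differ between panels and do not start at 0. Unchilled L20 stands alone in most panels, while in AT2G41190 and AT3G02480 both L20 arrays stay above both Col-1 arrays after cold.

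AT2G47780, of the family of rubber particle and lipid droplet proteins, had 7.54 and 6.92 in L20, against 4.39 and 4.61 in Col-1, before cold, a 6.64-fold difference. After cold it had 4.82 and 5.74 in L20, against 4.69 and 5.32 in Col-1. The arrays of the lines overlapped, though L20 was higher in both pairs, by 0.13 and 0.42. AT3G02480, a late embryogenesis abundant (LEA) family gene, was 2.81-fold higher in L20 before cold and differed by 0.19 in both replicates after it. AT5G47550, a cystatin gene whose product inhibits cysteine proteases, differed by 1.93 and 1.27 before cold and by 0.13 and 0.26 after cold. Its replicates lay far apart after cold in both lines alike, at 6.90 and 5.43 in L20 and at 6.77 and 5.17 in Col-1. That gap is shared by replicate number and does not measure the spread of the paired differences. On the 4 chilled arrays with the replicate block the difference was 0.19 ± 0.13 (SE), and limma did not call it. The TRAF-like gene ZW9 was 2.55-fold higher before cold and kept 20.5% of that after cold, with 0.36 and 0.19. The jacalin-lectin genes JAL22 and AT1G52000, of a family of sugar-binding proteins, were 2.29-fold and 2.15-fold higher in L20 before cold and differed by 0.19 and 0.08 on average after it.

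The protein phosphatase 2C gene AT3G05640 had 7.65 and 5.98 in L20, against 4.54 and 4.51 in Col-1, before cold, and 5.04 and 5.86 in L20, against 4.77 and 5.80 in Col-1, after cold. Its difference was 3.11 in replicate 1 and 1.47 in replicate 2 before cold, and 0.27 and 0.06 after cold. The transporter gene AT5G13400, of the nitrate and peptide transporter family, had 8.43 and 8.04 in L20, against 6.49 and 6.13 in Col-1, before cold. After cold AT5G13400 had 7.0 and 5.81 in L20, against 6.93 and 5.68 in Col-1. Its 2 replicates gave nearly the same difference before cold, 1.94 and 1.91. In Col-1 the mean moved by 0.00 with cold, while the replicates moved by 0.441 and -0.449. AT3G19850, of the NPH3 family linked to phototropism, was 2.50-fold higher in L20 before cold and differed by -0.06 and 0.27 after it.

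The remaining higher members with 1 gene were AT2G47440, AT2G30930 and AT1G78170, for which no role is given. AT2G47440 and AT2G30930 crossed over: they were 2.79-fold and 2.69-fold higher in L20 before cold and stood at -0.34 and -0.20 after it. The sign of both held in both replicates. Their standard errors were 0.66 and 0.61 without the block and 0.13 each on the 4 chilled arrays with the replicate block, where limma's adjusted p was 0.875 for AT2G47440 and 1.00 for AT2G30930. AT1G78170 was 2.79-fold higher before cold and differed by -0.05 and 0.39 after it.

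Among the lower members, the largest difference of a named gene was that of AT2G29290, a gene of the tropinone reductase-like family, at 5.43 and 5.81 in L20, against 7.50 and 7.73 in Col-1, before cold. After cold it was at 7.05 and 6.08 in L20, against 7.11 and 6.25 in Col-1. The lines met between their earlier levels, with a cold change of 0.95 in L20 and -0.94 in Col-1, and the Col-1 value lies close to the limit of the rule. AT2G29320, of the same family and 3 genes away in RefSeq's order, differed by -1.001 and -1.46 before cold and by -0.16 in both replicates after it. The alcohol dehydrogenase-family gene AT5G42250 was 2.59-fold lower in L20 before cold and differed by -0.25 and -0.13 after cold.

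The lipid transfer-family gene AT5G48490, a relative of the systemic defence gene DIR1, had 7.93 and 8.99 in L20, against 9.79 and 10.26 in Col-1, before cold. After cold it had 10.80 and 10.78 in L20, against 10.70 and 10.68 in Col-1. The signal was higher after cold in both lines, by 2.33 in L20 and 0.66 in Col-1 on average, and the lines then stood 0.10 apart. The pectin lyase-like gene AT1G60590 differed by -1.82 and -1.04 before cold and by 0.34 and 0.18 after it. The lipase-family gene AT5G24210, which lies 4 genes from AT5G24240, differed by -1.29 and -1.93 before cold and by 0.02 in both replicates after cold. These neighbours thus ended differently, with 81.9% of the difference left for AT5G24240 and -1.38% for AT5G24210. The alpha/beta-hydrolase-like gene AT1G73750 was 2.81-fold lower in L20 before cold and differed by 0.16 and 0.15 after it.

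**Figure D4:**
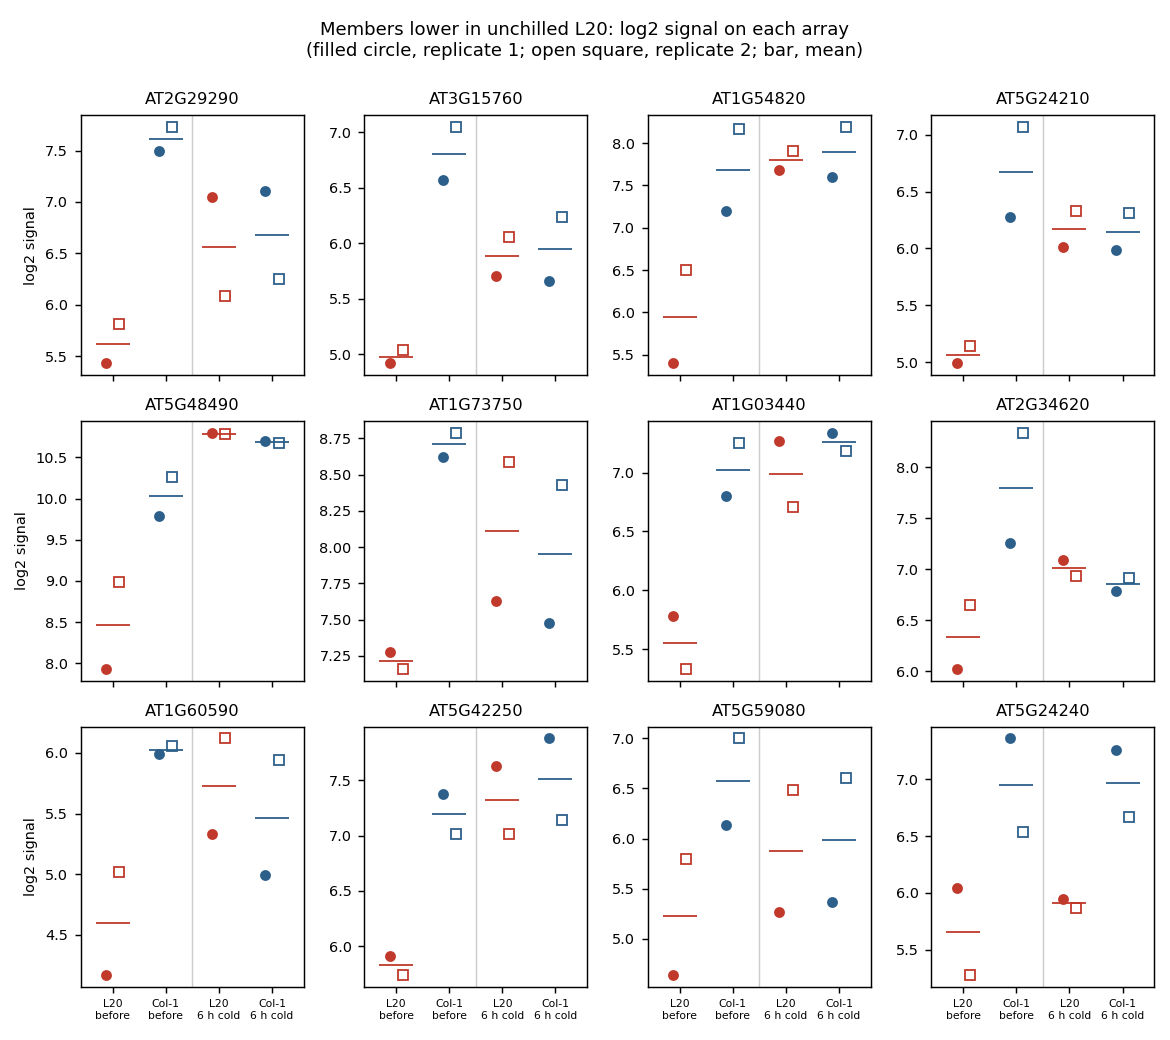
Log2 signal on each of the 8 arrays for the 12 lower members with 1 gene and the largest difference before cold; within each panel L20 stands left of Col-1, before cold and then after 6 h at 4 °C. Circles are replicate 1, squares replicate 2 and bars group means; axes differ between panels and do not start at 0. In AT5G24240 both L20 arrays lie below both Col-1 arrays at either time, and in AT5G48490 all 4 chilled arrays lie between 10.68 and 10.80.

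The protein kinase-family gene AT1G54820 stood at 5.40 and 6.50 in L20, against 7.20 and 8.17 in Col-1, before cold. After cold it stood at 7.68 and 7.91 in L20, against 7.60 and 8.19 in Col-1. The cold change was 1.85 in L20 and 0.21 in Col-1. The leucine-rich repeat genes AT1G03440 and AT4G16880 were 2.78-fold and 2.34-fold lower in L20 before cold and stood at -0.27 and -0.05 after it.

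Organelle gene expression was represented by AT2G34620, a gene of the mitochondrial transcription termination factor family, and AT1G60000, an RNA-binding protein gene. AT2G34620 differed by -1.24 and -1.69 before cold and by 0.30 and 0.01 after it. AT1G60000 differed by -1.03 and -1.07 before cold and by 0.03 and -0.15 after it. For AT3G15760, AT5G59080, AT2G38790 and AT2G03310 no role is given. They were 3.56-fold, 2.54-fold, 2.29-fold and 2.30-fold lower in L20 before cold, and stood at -0.06, -0.12, -0.17 and -0.18 after cold. In AT2G03310 it was Col-1 that moved, by -0.98, while L20 moved by 0.05.

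The 46 higher members with no gene name had differences of 1.02 to 4.12 before cold and a median of 0.06 after it, and the 17 lower ones had differences of -2.45 to -1.14 before cold and a median of -0.03 after it. The largest on the lower side was 248566_s_at, at 9.18 and 7.92 in L20, against 10.78 and 11.23 in Col-1, before cold. After cold it was at 11.54 and 10.40 in L20, against 11.24 and 10.41 in Col-1.

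Probe sets with 1 gene at the edge of the rule show how the cut fell. Some unnamed members lay as near to it, such as 264508_at with 1.03 and 1.005. Just inside stood MGL, with 1.26 and 1.01, JAL22, with 1.32 and 1.08, AT2G29320, with -1.001 and -1.46, and AT4G16880, with -1.45 and -1.001. Just outside stood AT1G19970 (2.05 and 0.997), AT4G27840 (1.19 and 0.991), AT1G14345 (-0.998 and -1.94) and AT1G66130 (-0.996 and -1.51).

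The replicates weighed differently in the choice. In 52 of 68 higher members the difference was larger in replicate 1, with medians of 1.94 in replicate 1 and 1.39 in replicate 2, and in 15 of 35 lower members, with medians of -1.35 and -1.31. Replicate 1 alone would have chosen 957 higher probe sets, of which 58 (6.06%) were also at least 1 higher in replicate 2, where 0.69% of all probe sets were. Replicate 2 alone would have chosen 90, of which 59 (65.6%) were at least 1 higher in replicate 1, where 5.61% of all probe sets were. On the lower side, 33 of 111 chosen in replicate 1 (29.7%, against 2.48% of all) and 42 of 321 chosen in replicate 2 (13.1%, against 0.928% of all) were also lower by at least 1 in the other replicate. The counts for replicate 2 alone are those without the array that stood apart, replicate 1 of Col-1 before cold.

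**Figure D5:**
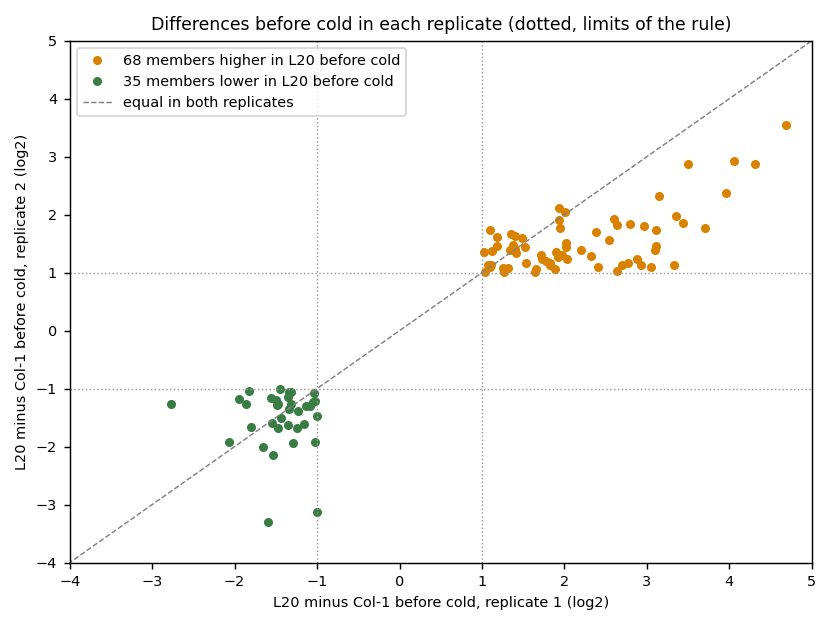
L20 minus Col-1 before cold in replicate 1 (x axis) against replicate 2 (y axis), on the log2 scale, for the 68 higher and 35 lower members; dotted lines are the limits of the rule and the dashed line marks equal differences. Of the higher members, 52 lie below the dashed line, with a larger difference in replicate 1.

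Scaling all arrays to 1 shared distribution changed the split. The rule then took 60 higher and 71 lower probe sets, 45.8% of them higher, against 66% higher with the deposited values. Of the 68 and 35 members, 53 and 28 were among them. Of the named members, 15 of 21 higher and 13 of 18 lower ones still met it; those that no longer did were AT1G32190, AT1G52000, BIM1, JAL22, MGL and ZW9 on the higher side and AT1G60000, AT1G60590, AT2G03310, AT2G29290 and AT2G34620 on the lower side. All 103 members kept the sign of their difference before cold in both replicates under this scaling. Whether the array that stands apart set the split was not tested.

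Probe sets that met the rule before cold but whose mean cold change in Col-1 lay outside the limits numbered 104, with 44 higher and 60 lower in L20. In all 44 and in 46 of 60, Col-1 moved with cold in the direction of the L20 difference. The share over all probe sets was not counted, and the unchilled Col-1 arrays used in both values favour this in these probe sets too. Their median difference after cold was 0.01 and -0.06, beside 0.07 and -0.07 for the members, and 0 of 44 and 0 of 60 kept at least 0.5 in both replicates. The difference between these sets was not tested.

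Of 14 gene lists for hormone, light, stress, clock, nutrient and cold pathways, with 222 loci, 27 had a named probe set, and 0 of these were members. Members were 103 of all 22746 probe sets, so the 0 of 27 is not read as a result. No gene was measured on the abscisic acid (0 of 20) and the gibberellin and brassinosteroid lists (0 of 9). The same held for the heat shock (0 of 13) and the nitrate and phosphate lists (0 of 12). After cold limma called 0 of the 27, and 0 had an unadjusted p under 0.05 in limma. The lists with most measured genes were the CBF and COR genes (6 of 16), with a median L20 difference of 1.97 before and 0.02 after cold (4 of the 6 met the rule before cold: COR15A, COR15B, COR47 and LTI30, all with a Col-1 response outside the limits), and the flavonoid genes (4 of 15), at -0.09 before and 0.17 after cold. On the cell wall list, 3 of 8 genes were measured, with medians of -0.06 before and -0.30 after cold, and on the auxin list 3 of 18, with -0.02 and 0.04; the auxin-response genes IAA29, GH3.3 and GH3.5, left out of the members by name and not on this list, also met the rule. The jasmonate (2 of 26) and iron deficiency lists (3 of 16) each had 1 gene that met the rule as lower before cold, ORA47 and AT1G47400, also outside the limits in Col-1. Over all probe sets the medians were 0.04 before and 0.00 after cold. Of 25 organ markers 4 were measured. The root-hair expansin genes EXPA7 and EXPA18 differed by 0.01 and 0.26 before cold and by -0.27 and 0.15 after it, and the leaf genes LHCB4.1 and RCA by 0.19 and -0.10 before and by -0.02 and 0.01 after cold. The summed log2 signal of the markers was not used, since levels of different probe sets cannot be compared. No seed marker had a named probe set, and the part of organ makeup in the differences was not tested.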

How the data were processed

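The authors deposited 1 table of log2 signals for 22810 probe sets on 8 arrays; RMA, which corrects background, normalizes and summarises probes, is named in the submitters' processing notes, with no version. The deposited arrays do not share 1 distribution (upper quartiles 6.28 to 6.64). After removing 64 control probe sets, 22746 were tested. Names came from the platform annotation, updated through Entrez identifiers to RefSeq (assembly TAIR10.1): 13513 probe sets had 1 gene (13436 matched), 503 several and 8730 none.

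L20 minus Col-1 after cold was tested with limma 3.58.1 in R 4.3.3 (a mean per group over 8 arrays, eBayes, two-sided, Benjamini-Hochberg over 22746, called under 0.05). The fit was also run on simulated arrays with independent noise. These had no shift shared by replicate number, so they cannot show how the fit behaves with such a shift. Replicate differences correlated between groups at 0.341 to 0.837, so the numbers were read as a shared batch, from the data and not the labels. The lowest value was that of L20 with Col-1 before cold, the groups paired to choose the members. The highest was that of the lines after cold. Over all probe sets the SD of L20 minus Col-1 was 0.51 and 0.41 before cold, against 0.20 and 0.21 after it (replicate 1 and 2). Members and lists were chosen with earlier results of these data known. Among probe sets with 1 gene, the rule for naming took members that kept at least 1 or were called after cold. It took the 12 largest per direction before cold and the 5 per direction farthest against that direction after cold. List members and, per direction, 2 probe sets on each side of the threshold were also named. The other named members were added so that every member with 1 gene is given. No sequences or coordinates were used here. The number of arrays limits the precision.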

Additional observations from a re-analysis of the deposited data

Results flagged for a closer look

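In 17 of the members given by name or probe set, the cold moved L20 one way in both replicates and Col-1 the other way in both. The difference was not tested, because the L20 and Col-1 arrays before cold chose the members. On the higher side the mean log2 cold change in L20 was -2.50 for 262128_at, -1.95 for AT2G47780, -1.48 for AT1G29670, -1.37 for AT3G05640, -1.14 for AT3G02480, -0.67 for MGL, -0.50 for ZW9, -0.46 for BIM1 and -0.23 for AT2G41190. On the lower side it was 1.13 for AT1G60590, 1.11 for AT5G24210, 0.95 for AT2G29290, 0.91 for AT3G15760, 0.89 for AT1G73750, 0.67 for AT2G34620, 0.65 for AT5G59080 and 0.61 for AT2G29320. Over all members this pattern held for 32 of 68 higher and 14 of 35 lower ones, against 5.07% and 3.58% of all probe sets, and the choice of members favours it.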

How the results depend on the processing

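With only 2 arrays per group, small differences after cold could not be resolved, and no scanner files were used, so signal over background was not analysed. That no member kept at least 1 in both replicates after cold held under both other scalings, a minimum mean signal of 5, thresholds of 0.8 and 1.5, a Col-1 window of 0.5 and 1 probe set per gene. With 1 replicate alone, 1 to 2 higher and 0 to 1 lower members kept it, which the looser condition by itself allows. Limma called 0 probe sets and 0 members after cold in every alternative, the replicate block (0) and each left-out array included, except the fit on the 4 chilled arrays with the replicate block, added after seeing the data, which called 2 higher, 2 lower and 2 members. With 1 chilled array left out, the difference after cold was 0.648 to 1.58 for 262128_at (lowest without replicate 2 of L20), 0.577 to 0.846 for AT2G41190 and -1.35 to -0.763 for AT5G24240. Such a fit breaks the pairing by replicate number, so shifts shared by both lines enter these ranges. Replicate differences after cold correlated between the lines at 0.837. Paired by replicate, the differences were 0.95 and 1.28 for 262128_at, 0.70 and 0.73 for AT2G41190, and -1.31 and -0.81 for AT5G24240. The number of members moved: 128 higher and 67 lower at a threshold of 0.8, 21 and 6 at 1.5, 33 and 16 with the Col-1 window of 0.5, 21 and 18 with 1 probe set per gene, and 71 lower after quantile normalization; with 1 replicate alone it was 90 to 957 higher and 111 to 321 lower. The threshold, window and replicate changes set these counts by construction; the cause of the quantile shift was not tested. The median difference after cold of the higher members was 0.0247 to 0.0714 with 1 replicate alone. Of 40 members described by name or as 262128_at, 31 changed sign after cold in at least 1 of up to 15 alternatives. These alternatives include the fits with 1 chilled array left out, where the broken pairing alone can turn a sign. AT2G47440, at -0.32 and -0.36 in the pairs, read 0.465 without replicate 1 of Col-1 after cold. The blocked fit changed no call.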
